A study of Sus scrofa with 22 samples.

Results

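Microglia are the resident macrophages of the brain, and 39 genes that mark them or macrophages at the brain's borders were followed in the cerebellum of young piglets. The genes were chosen by name, with earlier results of these data known. Of the 39 genes, 38 had a pig Ensembl identifier, 37 had at least 10 counts in some library and 36 passed the count filter, out of 31907 identifiers in the tables and 14994 genes tested. TMEM119, a microglial membrane protein gene, matched no identifier in the name tables used and is not analysed here. PLD4, an endolysosomal nuclease gene, had 0 counts in every library and is reported as absent, where 3 counts would have been 0.150 to 0.203 counts-per-million (CPM). Its RefSeq chromosome is given as unknown, and whether reads could be assigned to PLD4 was not tested. CSF3R, the receptor gene for granulocyte colony-stimulating factor, had 2 to 18 counts and was too low to test. CYBB, the catalytic subunit gene of the phagocyte NADPH oxidase, is listed as GP91-PHOX in the name table and was matched through its synonym.

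The 11 BDL piglets (7 female, 4 male) had their bile duct ligated at 8 days of age, which stops bile from leaving the liver. The 11 SHAM piglets (5 female, 6 male) had sham surgery at the same age, and both groups were followed for 3 weeks. Strain, genotype and litter are not stated in the labels. Whole-cerebellum RNA was sequenced, and reads were counted per gene. Libraries held 14811464 to 20046909 gene counts, with 19538 to 20490 genes detected. The labelled body weight, for which no unit is given, averaged 2044 ± 313 over the BDL piglets and 2035 ± 273 over the SHAM piglets (SD, n = 11 each). It was 2133 ± 315 in the 12 females and 1926 ± 210 in the 10 males. The tissue label was checked against defining genes. Markers of cerebellar granule neurons summed to 5722 to 6930 CPM in BDL and 5718 to 7207 CPM in SHAM libraries, while the forebrain genes EMX1, EMX2, DLX1 and DLX2 were under 10 counts in every library.

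Microglia enter the brain early in embryonic life and live there under signals through the receptor CSF1R. In the resting state they carry a set of surveillance receptors, such as CX3CR1 for the neuronal chemokine fractalkine and P2RY12 for ADP. They are the main makers of complement C1q in the brain, and they clear debris through the receptor TREM2 and its signalling partner TYROBP. Macrophages of the meninges and perivascular spaces are a separate population, known by the scavenger receptors CD163 and MRC1. In whole tissue, fewer cells of a type and less RNA per cell cannot be told apart.

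BDL against SHAM asks whether blocked bile flow shifts these genes in the cerebellum. None of the 36 members passed edgeR's quasi-likelihood test at an adjusted p under 0.05, and their adjusted p ran from 0.881 to 0.997. Over all 14994 genes the share called was 0%. At an unadjusted p under 0.05 there were 0 members, beside 4.96% of all genes. Of the 36 members, 14 stood on the higher side in BDL, beside 50.3% of all genes, and the median log2 fold change was -0.04, beside 0.0006 over all genes. The members' log2 fold changes ran from -0.26 to 0.20. DESeq2 and limma-voom called 0 members too.

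**Figure D1:**
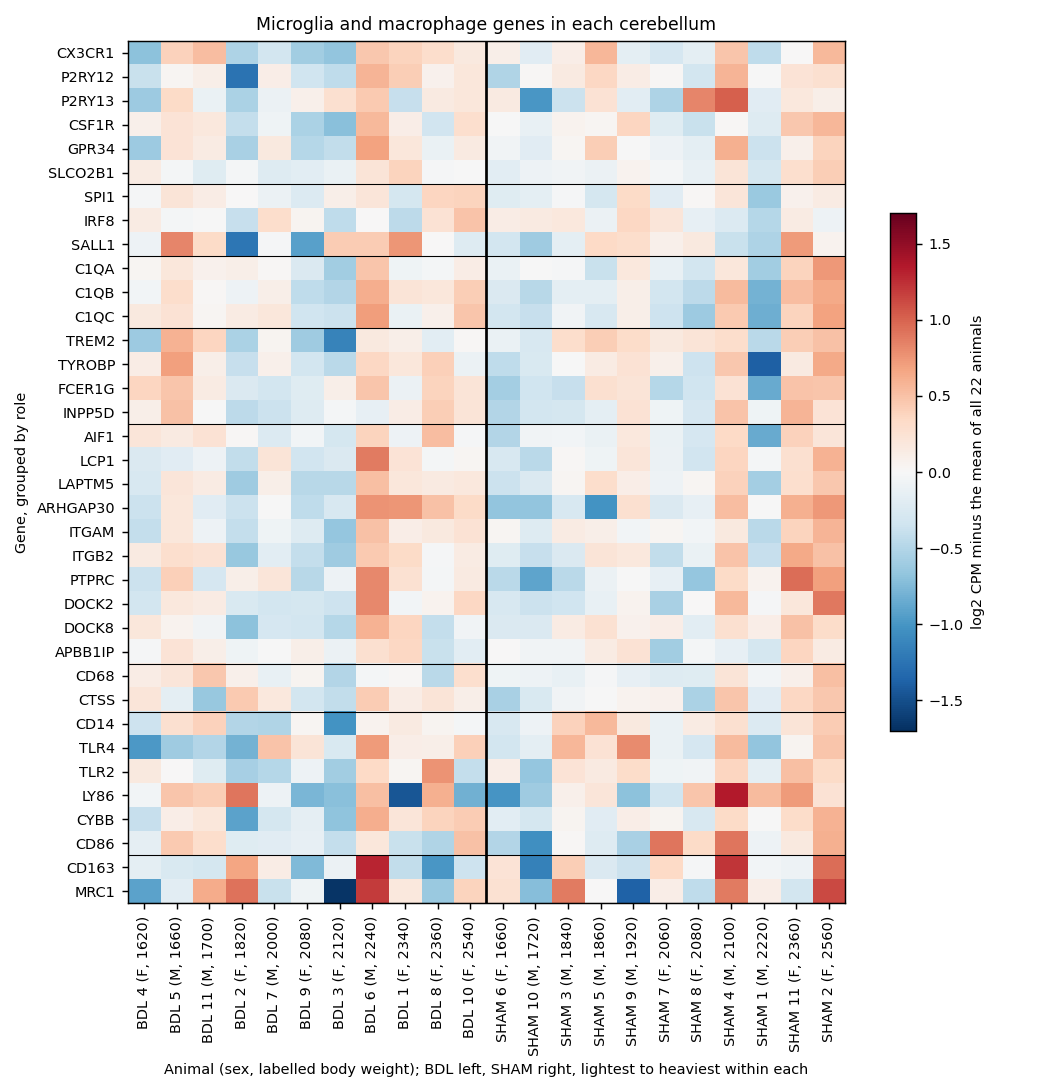
Level of each tested member (rows, by role) in each of the 22 cerebella (columns, BDL left and SHAM right, lightest to heaviest by labelled body weight within each). Colour is log2 CPM minus the gene's mean over all animals, red above and blue below. Single columns, more than the left or right side, carry most of the colour. BDL replicate 6 and SHAM replicates 2, 4 and 11 are red over most rows. BDL replicates 2, 3 and 9 and SHAM replicates 1 and 10 are among those blue over most rows.

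The surveillance receptors were all a little to the lower side in BDL, none past the test. CX3CR1 (chromosome 13, 23944386 to 23957567 on Sscrofa11.1) ran from 8.72 to 20.5 CPM with a median of 15.9 in BDL and from 10.53 to 20.9 CPM with a median of 14.3 in SHAM (log2 fold change -0.04 ± 0.17 SE). P2RY12 (chromosome 13, 91522754 to 91572195) ran from 5.76 to 20.9 CPM with a median of 14.7 in BDL and from 9.76 to 20.95 CPM with a median of 15.2 in SHAM (-0.07 ± 0.15). Both genes overlapped between the groups over much of their range, but the 4 lowest CX3CR1 values and the lowest P2RY12 value were in BDL animals. CSF1R, the receptor that keeps microglia alive, ran from 28.5 to 69.0 CPM with a median of 49.9 in BDL and from 36.1 to 69.6 CPM with a median of 47.7 in SHAM (-0.07 ± 0.14). Its neighbours in role lay in the same narrow band of fold changes. GPR34, a lysophosphatidylserine receptor gene, was at -0.06 ± 0.14, the ADP receptor gene P2RY13 at -0.13 ± 0.25 and the transporter gene SLCO2B1 at -0.04 ± 0.08. P2RY13 was scarce, with 6 to 28 counts per library.

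The transcription factors that set macrophage and microglial identity split. SPI1, which encodes the myeloid master regulator PU.1, ran from 30.03 to 47.8 CPM with a median of 39.3 in BDL and from 23.7 to 46.2 CPM with a median of 36.2 in SHAM. Its log2 fold change was 0.13 ± 0.10 (edgeR adjusted p = 0.881), with 8 of 11 BDL animals above the SHAM mean. The groups overlapped from 30.03 to 46.2 CPM. IRF8, a myeloid interferon regulatory factor gene, ran from 51.7 to 99.0 CPM with a median of 71.1 in BDL and from 50.7 to 90.6 CPM with a median of 77.2 in SHAM (-0.01 ± 0.11). SALL1, which in mice holds microglia in their resting identity, ran from 5.05 to 21.5 CPM with a median of 12.1 in BDL and from 7.81 to 19.9 CPM with a median of 12.5 in SHAM (0.13 ± 0.21). Its BDL animals held both the lowest and the highest value.

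The C1q chains lie side by side on chromosome 6 in the order C1QA (80586259 to 80589213), C1QC (80592591 to 80597464) and C1QB (80601680 to 80606076). C1QA ran from 12.6 to 26.5 CPM with a median of 19.6 in BDL and from 12.6 to 31.9 CPM with a median of 18.8 in SHAM (-0.01 ± 0.13). C1QB ran from 25.3 to 55.0 CPM with a median of 38.1 in BDL and from 20.4 to 55.9 CPM with a median of 31.8 in SHAM (0.11 ± 0.17). C1QC ran from 24.0 to 50.8 CPM with a median of 34.2 in BDL and from 17.3 to 49.9 CPM with a median of 25.7 in SHAM (0.19 ± 0.17, edgeR adjusted p = 0.882). The BDL medians of C1QB and C1QC were above those of SHAM, yet the highest animals of the groups lay close together.

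TREM2 (chromosome 7, 36465921 to 36471509), the lipid and debris receptor, had the smallest p of the 36 members. It ran from 3.45 to 11.7 CPM with a median of 7.87 in BDL and from 5.597 to 10.998 CPM with a median of 9.52 in SHAM. The log2 fold change was -0.26 ± 0.16 (unadjusted p = 0.1095, edgeR adjusted p = 0.881), and 2 of 11 BDL animals were above the SHAM mean. The lowest values were in BDL animals, and so was the highest. TYROBP, the adaptor through which TREM2 signals, ran from 4.71 to 10.6 CPM with a median of 6.93 in BDL and from 2.40 to 10.2 CPM with a median of 6.91 in SHAM (0.10 ± 0.18). The Fc receptor gamma chain gene FCER1G was at 9.20 ± 1.85 CPM in BDL and 8.04 ± 2.58 CPM in SHAM (0.20 ± 0.16, edgeR adjusted p = 0.881). INPP5D, the gene of the lipid phosphatase SHIP1 that restrains this signalling, was at 0.01 ± 0.14.

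Among the integrin, membrane and cytoskeleton genes shared by leukocytes, 5 of 10 were on the higher side. AIF1, which encodes the microglial stain target IBA1 (chromosome 7, 23711752 to 23731191), ran from 9.59 to 17.1 CPM with a median of 12.03 in BDL and from 6.46 to 15.5 CPM with a median of 11.3 in SHAM (0.14 ± 0.13). The groups overlapped, and the lowest value was in SHAM replicate 1. ITGAM and ITGB2, which form the complement receptor CR3, were at -0.11 ± 0.13 and -0.05 ± 0.16. The CD45 gene PTPRC was at 0.07 ± 0.20, the actin bundler gene LCP1 at 0.00 ± 0.14 and the lysosomal membrane gene LAPTM5 at -0.04 ± 0.13. The small GTPase regulator genes ARHGAP30, DOCK2 and DOCK8 were at 0.12 ± 0.22, -0.01 ± 0.17 and -0.16 ± 0.14, and APBB1IP, an integrin activator gene, at 0.06 ± 0.10.

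The lysosome genes CD68, a macrophage glycoprotein, and CTSS, the protease cathepsin S, were at 0.04 ± 0.11 and 0.02 ± 0.14. The 6 tested genes of microbial sensing and defence all stood on the lower side without passing. CD14, the lipopolysaccharide co-receptor, ran from 3.01 to 8.16 CPM with a median of 6.30 in BDL and from 5.10 to 9.07 CPM with a median of 6.94 in SHAM. Its log2 fold change was -0.21 ± 0.14 (unadjusted p = 0.142, edgeR adjusted p = 0.881), with 3 of 11 BDL animals above the SHAM mean and wide overlap. The receptors TLR4 and TLR2 were at -0.13 ± 0.22 and -0.18 ± 0.18, and LY86, which partners a TLR4-like receptor, at -0.14 ± 0.31. CYBB was at -0.04 ± 0.16 and CD86, a co-stimulatory ligand gene of T cells, at -0.19 ± 0.23. CSF3R was at 0.396 ± 0.230 CPM in BDL and 0.494 ± 0.337 CPM in SHAM, with no test. The border macrophage receptors were low and variable. CD163 ran from 0.570 to 3.21 CPM with a median of 1.02 in BDL and from 0.497 to 3.03 CPM with a median of 1.22 in SHAM (-0.21 ± 0.29). MRC1 ran from 0.383 to 3.49 CPM with a median of 1.39 in BDL and from 0.499 to 3.33 CPM with a median of 1.60 in SHAM (-0.04 ± 0.32). Both spread over a several-fold range inside each group, which left their fold changes the least precise of the list beside LY86.

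How much change each gene leaves room for is given by its 95% confidence interval, which stayed within 1.25-fold up or down for 9 of the 36 members, beside 63.6% of all genes. It stayed within 1.5-fold for 30 members, beside 87.1% of all genes, and within 2-fold for 36. The members were thus measured less precisely than genes at large, with a median standard error of 0.16 on the log2 scale beside 0.08 over all genes. For the other 27 members a 1.25-fold change lay within the interval on at least 1 side.

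**Figure D2:**
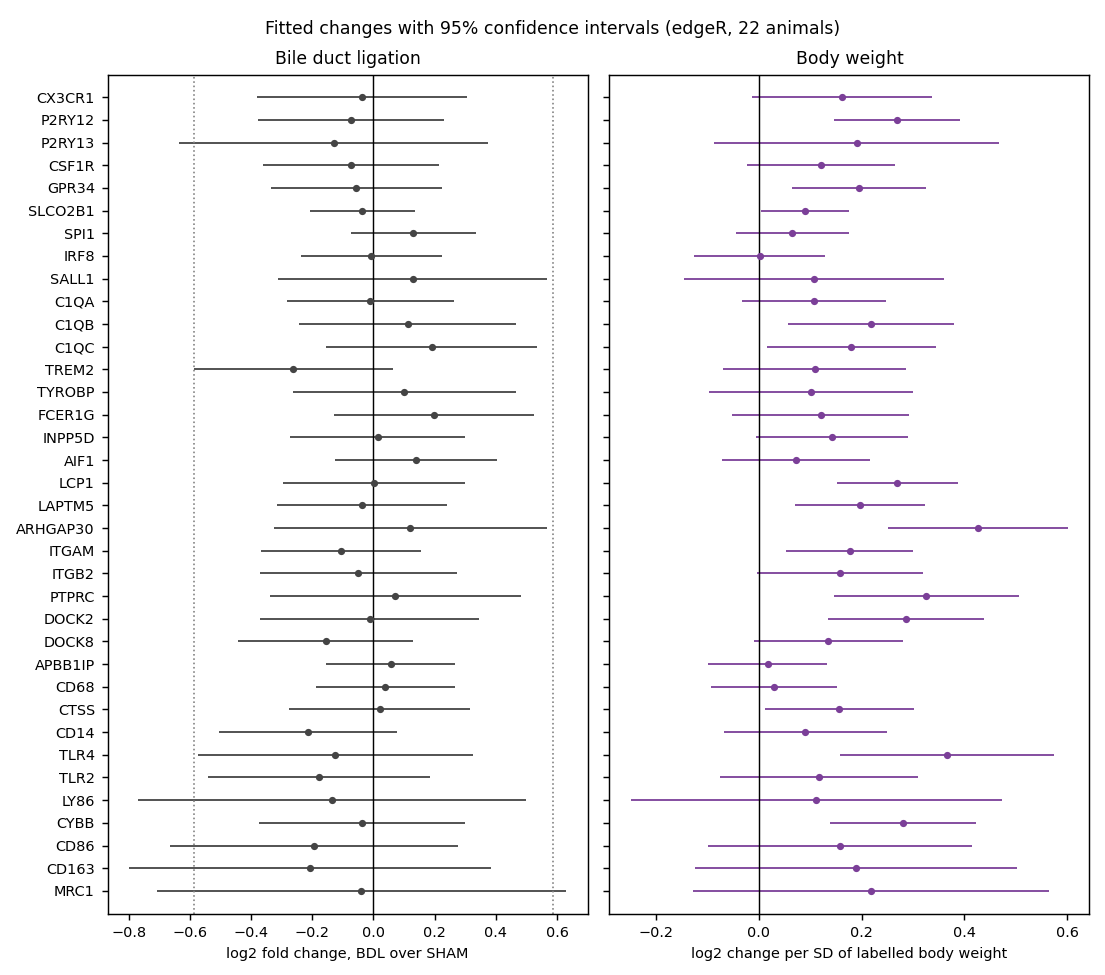
Fitted change of each tested member with its 95% confidence interval (horizontal axes, log2 scale; edgeR, 22 animals). Left, BDL over SHAM, with dotted lines at 1.5-fold; right, change per SD of labelled body weight. Every interval on the left crosses 0, while all 36 points on the right lie above 0.

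Other genes that work with these members were read from the same fit. Of 12 tested ligands and partners of microglial receptors, 5 were on the higher side and 0 passed, with the CSF1R ligands CSF1 at 0.21 ± 0.12 and IL34 at 0.15 ± 0.12. Of 7 complement genes and receptors, 5 were higher and 0 passed, with the C3a receptor gene C3AR1 at -0.42 ± 0.23 and the C1 inhibitor gene SERPING1 at 0.15 ± 0.09. Among 20 other microglia genes 13 were higher and 0 passed, with P2RX4, an ATP-gated channel gene, at 0.25 ± 0.09. Genes listed for activated microglia had 11 of 18 on the higher side and 0 past the test, with the chemokine gene CCL4 at 0.46 ± 0.29 and the protease gene CTSB at -0.09 ± 0.05. The 23 genes found of this list summed to 3981 to 5581 CPM in BDL and 3239 to 5541 CPM in SHAM libraries. Which cells carried them cannot be told in whole tissue. Of 7 other border macrophage genes 5 were higher and 0 passed, and F13A1, a coagulation factor subunit made by macrophages, was at 0.53 ± 0.17 (unadjusted p = 0.00467, edgeR adjusted p = 0.881).

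Labelled body weight gave the members a common direction. Per SD of weight (286 in the labels' unit), with sex and treatment in the model, 36 of 36 members had a positive log2 change, beside 50.3% of all genes. The members' median was 0.16 and their range 0.00 to 0.43, beside a median of 0.0004 over all genes. No member and no gene passed the adjusted threshold in edgeR, where the share of all genes called was 0%. At an unadjusted p under 0.05 there were 14 members, beside 7.39% of all genes. All 14 were on the higher side, beside 4.26% of all genes. The members move together between animals, as shown further on, so these counts do not stand for 36 separate observations.

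The smallest p belonged to ARHGAP30 and LCP1, genes of the leukocyte cytoskeleton. The 5 heaviest animals (2340 to 2560; 3 BDL and 2 SHAM, all female) are given beside the 5 lightest (1620 to 1720; 3 BDL and 2 SHAM, 2 female and 3 male). ARHGAP30 was at 3.78, 4.28, 4.62, 5.09 and 5.12 CPM in the heaviest and at 1.84, 1.84, 2.30, 2.62 and 3.44 CPM in the lightest. Its log2 change was 0.43 ± 0.08 per SD (unadjusted p = 3.8e-05, edgeR adjusted p = 0.335). LCP1 was at 8.04, 8.37, 9.62, 9.95 and 12.4 CPM in the heaviest and at 5.92, 6.75, 6.89, 7.15 and 7.75 CPM in the lightest (0.27 ± 0.06, edgeR adjusted p = 0.335). For both genes the ends did not overlap, although animals of middle weight reached either end, and the highest value of each belonged to BDL replicate 6, at a weight of 2240. DOCK2 (0.29 ± 0.07), PTPRC (0.33 ± 0.09), LAPTM5 (0.20 ± 0.06) and ITGAM (0.18 ± 0.06) were also among the 14, each with overlapping ends.

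Among the surveillance receptors, P2RY12 was at 14.7, 15.9, 16.4, 16.9 and 18.7 CPM in the heaviest and at 9.76, 10.8, 14.2, 14.3 and 14.9 CPM in the lightest (0.27 ± 0.06, unadjusted p = 0.000137, edgeR adjusted p = 0.335). The ends met, and P2RY12 was the steepest of the 6 receptor genes. GPR34 was at 0.19 ± 0.06, SLCO2B1 at 0.09 ± 0.04, CX3CR1 at 0.16 ± 0.08 and CSF1R at 0.12 ± 0.07. CYBB was at 5.96, 6.45, 6.73, 6.99 and 7.84 CPM in the heaviest and at 3.91, 4.18, 4.54, 5.59 and 5.89 CPM in the lightest (0.28 ± 0.07, edgeR adjusted p = 0.363), with a narrow gap between the ends. TLR4 was at 0.37 ± 0.10, from 1.93 to 2.63 CPM in the heaviest and from 0.887 to 1.64 CPM in the lightest. C1QB was at 0.22 ± 0.08, C1QC at 0.18 ± 0.08 and CTSS at 0.16 ± 0.07, which completes the naming of the 14. At the flat end were IRF8 (0.00 ± 0.06), APBB1IP (0.02 ± 0.06), CD68 (0.03 ± 0.06) and SPI1 (0.07 ± 0.05). TREM2 (0.11 ± 0.09), TYROBP (0.10 ± 0.10), AIF1 (0.07 ± 0.07) and CD14 (0.09 ± 0.08) had positive slopes below 1.5 times their standard errors.

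**Figure D3:**
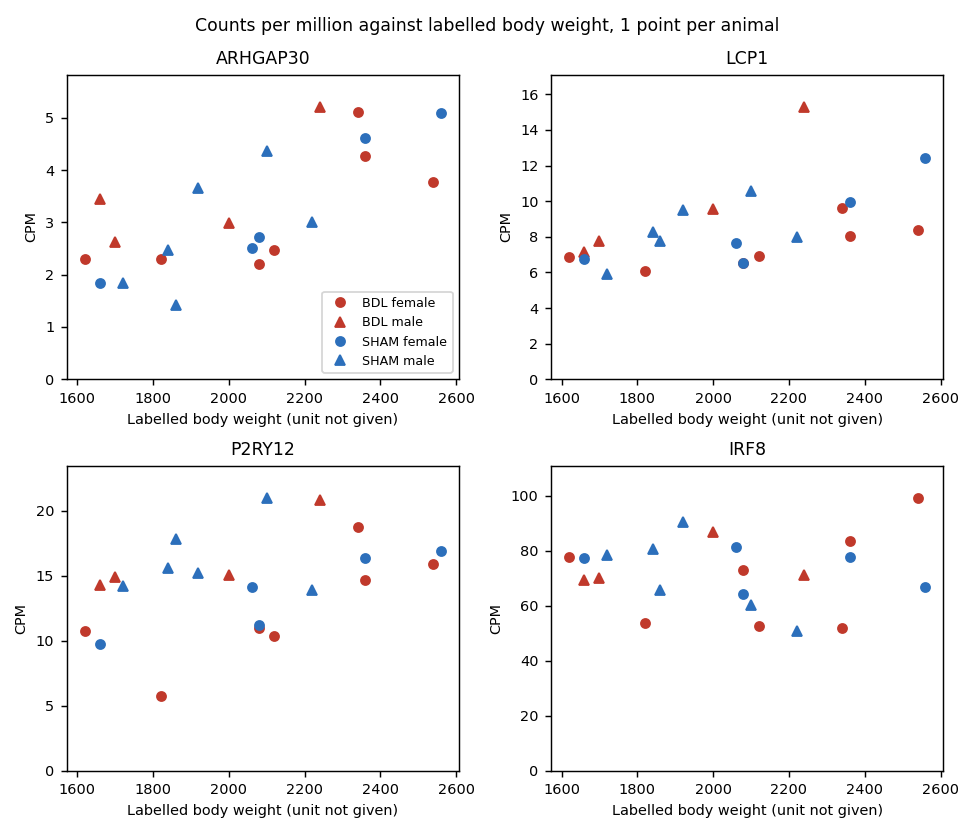
CPM (vertical axis, from 0) against labelled body weight (horizontal axis, unit not given) for ARHGAP30, LCP1, P2RY12 and IRF8, 1 point per animal, BDL red and SHAM blue, females circles and males triangles. The first 3 are the members with the smallest p for weight and have positive fitted slopes in BDL and in SHAM animals alone. IRF8 has a fitted slope of 0.00.

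In edgeR with all 22 animals the smallest adjusted p of a member for weight was 0.335, above the threshold. Of 34 alternatives, only DESeq2 and the fit without SHAM replicate 1 called any member. DESeq2 called 8 genes, of which 3 were members: ARHGAP30 (adjusted p = 0.0203), LCP1 and P2RY12 (adjusted p = 0.0283 each). Without SHAM replicate 1, a male of 2220 with low values, edgeR called 9 genes, of which 5 were members (TLR4, ARHGAP30, LCP1, P2RY12 and LAPTM5, adjusted p = 0.0458 each), and 22 members had an unadjusted p under 0.05. Without BDL replicate 4 it called 3 genes and 0 members. The median slope was 0.10 in BDL animals alone and 0.19 in SHAM animals alone, over 32 members tested in each. It was 0.18 in females alone and 0.12 in males alone, where 18 and 5 members had an unadjusted p under 0.05. The 7.39% of all genes given above belongs to the fit of all 22 animals. The share of all genes in these smaller fits is not reported here.

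Markers of other cells were read against weight in the same fit. Of the 20 other microglia genes, 19 had a positive slope (median 0.15). Interferon response genes had 14 of 14 positive (median 0.36), and their summed level ran from 678 to 1361 CPM in the 5 heaviest and from 318 to 1177 CPM in the 5 lightest. Blood monocyte and neutrophil genes had 5 of 5 tested positive (median 0.10), summing to 84.8 to 119 CPM in the heaviest and 78.6 to 103 CPM in the lightest. The neutrophil genes MPO, CD177 and S100A12 had at most 5 counts in any library. Lymphocyte genes had 4 of 6 positive (median 0.06), among them the T cell gene CD2 at 0.70 ± 0.16. The red cell genes HBB and ALAS2 had negative slopes (median -0.45). Other border macrophage genes had 6 of 7 positive (median 0.15), complement genes 5 of 7 (median 0.15) and activated microglia genes 11 of 18 (median 0.07). Astrocyte and Bergmann glia genes had 7 of 7 positive (median 0.10), and their summed level ran from 5198 to 7056 CPM in the heaviest and from 4910 to 6960 CPM in the lightest. Choroid plexus and meningeal genes had 4 of 7 positive (median 0.01) over a range from -1.21 to 0.10, and 2 of them were lower with weight at an unadjusted p under 0.05. Their summed level ran from 238 to 1175 CPM in the heaviest and from 312 to 1815 CPM in the lightest. Endothelial and mural genes had 6 of 8 positive (median 0.04), ligands and partners of microglial receptors 8 of 12 (median 0.02), oligodendrocyte genes 6 of 10 (median 0.01), Purkinje cell genes 5 of 10 (median 0.01) and granule neuron genes 2 of 11 (median -0.03). None of the genes in these lists passed the adjusted threshold. The part of these other cells in the members' slopes was not tested.

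Between the sexes no member passed, beside 0.06% of all genes called. This model held treatment but not body weight, which averaged 2133 in females and 1926 in males. The part of weight in the sex differences was not tested. In females 6 of 36 members were higher than in males, beside 7443 of all 14994 genes. The members' median log2 difference was -0.07, beside -0.0009 over all genes. Here too the members move together, so the shared sign does not stand for separate observations. At an unadjusted p under 0.05 there were 2 members, beside 5.95% of all genes. GPR34, on the X chromosome, was lower in females by a log2 difference of -0.31 ± 0.14 (edgeR adjusted p = 0.787), and P2RY12 by -0.32 ± 0.15 (edgeR adjusted p = 0.829). The next smallest p were those of TREM2 (-0.27 ± 0.16), CX3CR1 (-0.25 ± 0.17) and CD14 (-0.19 ± 0.14).

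The effect of BDL was compared between the sexes, where fitted changes mostly had opposite signs without passing the test. Within females 31 of 36 members were lower in BDL, beside 7428 of all 14994 genes (median log2 fold change -0.22, beside 0.0016). Within males 31 of 36 members were higher, beside 7117 of all 14994 genes (median 0.20, beside -0.0074). The difference, female minus male, was below 0 for 34 members, beside 48.5% of all genes, with a median of -0.44. No member passed the test of that difference, where the share of all genes called was 0%, and 3 members had an unadjusted p under 0.05, beside 4.6% of all genes. As with weight, the members move together, so the shared sign is not 34 separate observations.

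TREM2 had the smallest p for the difference between the sexes. In females it ran from 3.45 to 8.27 CPM with a median of 5.31 in 7 BDL animals and was at 7.12, 8.67, 9.02, 10.4 and 10.998 CPM in 5 SHAM animals (-0.63 ± 0.19, unadjusted p = 0.00268, edgeR adjusted p = 0.795). In males it was at 7.996, 8.69, 9.96 and 11.7 CPM in 4 BDL animals and ran from 5.597 to 10.4 CPM with a median of 9.53 in 6 SHAM animals (0.17 ± 0.21). The female groups overlapped only between 7.12 and 8.27 CPM, while the male groups overlapped widely. The difference between the sexes was -0.81 ± 0.28 (unadjusted p = 0.00808, edgeR adjusted p = 0.917).

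ITGAM was at 11.5 ± 2.7 CPM in BDL females and 14.7 ± 2.9 CPM in SHAM females, and at 14.1 ± 2.9 CPM in BDL males and 12.3 ± 2.0 CPM in SHAM males (difference -0.54 ± 0.24, edgeR adjusted p = 0.917). C1QA was at 18.0 ± 2.9 CPM in BDL females and 21.4 ± 6.9 CPM in SHAM females, and at 21.9 ± 3.2 CPM in BDL males and 18.0 ± 3.7 CPM in SHAM males (difference -0.53 ± 0.25, edgeR adjusted p = 0.917). The CD45 gene PTPRC differed by -0.75 ± 0.38 and CSF1R by -0.51 ± 0.26, the next smallest p. CTSS and TLR4 were the exceptions to the sign, at 0.08 ± 0.29 and 0.07 ± 0.45. The mean log2 CPM of the 36 members was 2.92 ± 0.21 in 7 BDL females and 3.12 ± 0.31 in 5 SHAM females, and 3.22 ± 0.23 in 4 BDL males and 3.03 ± 0.28 in 6 SHAM males.

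**Figure D4:**
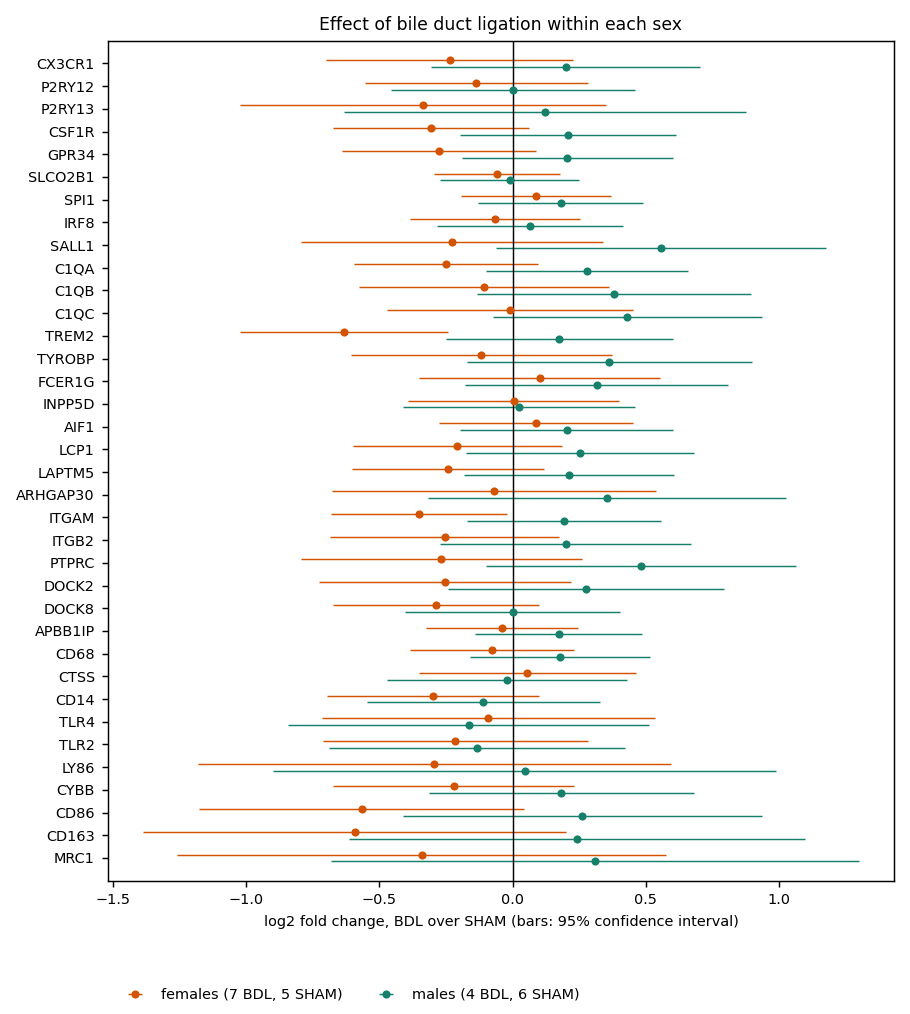
Log2 fold change of each member, BDL over SHAM, within females (orange; 7 BDL, 5 SHAM) and within males (green; 4 BDL, 6 SHAM), with 95% confidence intervals from 1 model of all 22 animals. Female points lie mostly left of 0 and male points mostly right, with the intervals of TREM2 and ITGAM in females clear of 0 before adjustment for the number of genes.

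Markers of other cell types were read from the same comparison, where none of the genes in these lists passed the adjusted threshold. Oligodendrocyte genes had 10 of 10 differences below 0 (median -0.79), at a median of -0.17 within females and 0.61 within males. The red cell genes HBB and ALAS2 had a median difference of 1.80, and choroid plexus and meningeal genes had 7 of 7 above 0 (median 0.22, highest 4.99). The 20 other microglia genes had 16 of 20 below 0 (median -0.28), other border macrophage genes 5 of 7 (median -0.19), Purkinje cell genes 8 of 10 (median -0.13), and granule neuron genes 7 of 11 and astrocyte and Bergmann glia genes 4 of 7 (median -0.04 each). Endothelial and mural genes had 6 of 8 above 0 (median 0.16), and 12 of 14 interferon response genes were above 0 (median 0.14). The part of tissue composition in the members' sex difference was not tested.

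Across animals most members moved together. With sex and treatment removed from log2 CPM, the 630 pairs of members had a median Pearson r of 0.47 over 22 animals, beside -0.003 for pairs of all genes. Of these pairs 605 were above 0, and the first principal component held 51.0% of the members' variance, against 8.69% for the second. Body weight, along which all 36 members had positive slopes, was not removed, and its part in the shared pattern was not tested. All members of 1 animal come from 1 library and share its depth and scaling, so these r are descriptions. The members' mean log2 CPM was highest in BDL replicate 6 (3.54) and SHAM replicate 2 (3.53), and lowest in BDL replicate 3 (2.64) and SHAM replicate 10 (2.69). Both ends of the range thus held animals of both groups.

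The members closest to this shared pattern were C1q and integrin genes, LAPTM5 and the receptor gene GPR34. C1QB followed the mean of the other members most closely (r = 0.95), then LAPTM5 (0.91), ITGAM (0.89), ITGB2 (0.88), C1QC (0.86) and GPR34 (0.86). The closest pairs were C1QB with C1QC (r = 0.95), C1QA with C1QC (0.92) and GPR34 with LAPTM5 (0.90), the C1q pairs being neighbours on the chromosome. In all, 27 of 36 members had r above 0.5. Among non-members with a symbol, the genes most like the members' mean were CD53, a leukocyte tetraspanin gene (r = 0.91), HCLS1, a cytoskeletal adaptor gene of blood cells (0.90), the immune GTPase genes GIMAP8 and GIMAP4 (0.89 each), and the complement gene C3 (0.89). PARVG (0.88), ARHGAP25 (0.86), SASH3 (0.86), ADA2 (0.85) and ADORA3 (0.85) followed. CD53, HCLS1, C3 and ADORA3 also stand in the lists of other microglia and complement genes given above.

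Several members stood outside this pattern. IRF8, at 50.7 to 99.0 CPM one of the best-counted members, had r = 0.15 with the mean of the others, and its closest genes were PEX14, a peroxisome import gene (0.76), PRKAR1B, a neuronal protein kinase A subunit gene (0.76), and RAB5IF (0.74). SALL1 had r = 0.43 with the other members but r = 0.93 with the mean of 10 oligodendrocyte genes. Genes close to SALL1 included HHIP (0.95) and APLN (0.94). IRF8 and SALL1 had at least 761 and 79 counts in each library, so neither was at the counting limit. CD163 and MRC1 followed the mean of 7 other border macrophage genes (r = 0.69 and 0.62) more closely than the other members (0.44 and 0.43), although C1QB (0.74), PTPRC (0.73), SLCO2B1 (0.73), DOCK2 (0.72), LCP1 (0.70) and GPR34 (0.70) followed that list more closely than either. LY86 (0.31) and P2RY13 (0.43) were low in counts, with 5 to 48 and 6 to 28 per library, where counting error limits any correlation. APBB1IP had r = 0.37 at 132 to 289 counts.

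**Figure D5:**
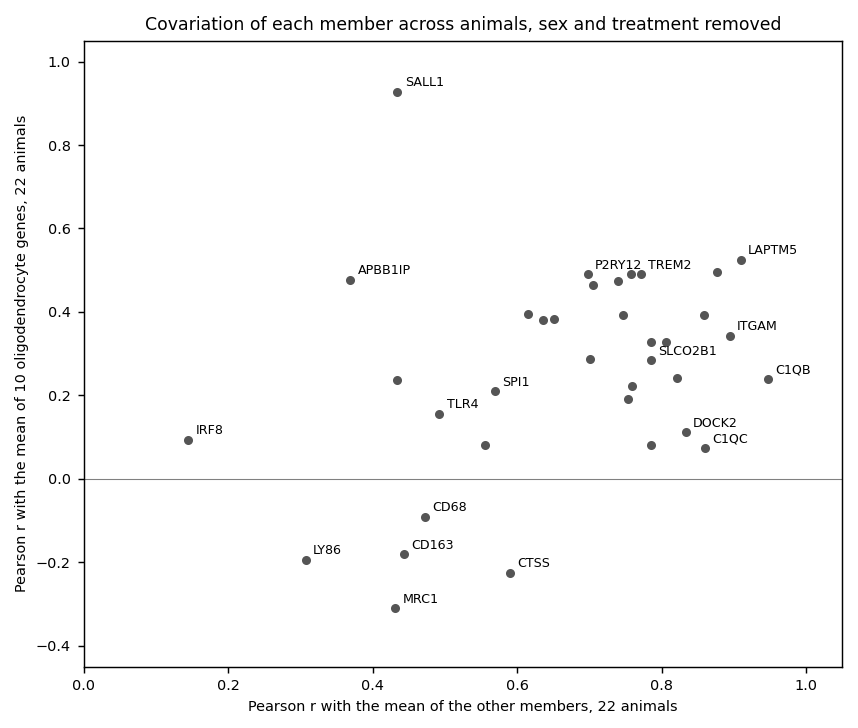
Each point is 1 tested member: Pearson r over 22 animals with the mean of the other members (horizontal axis) and with the mean of 10 oligodendrocyte genes (vertical axis), sex and treatment removed. Most members lie to the right; SALL1 stands alone at the top (0.43 and 0.93) and IRF8 at the far left (0.15).

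The members' mean was set beside other lists over the same 22 animals, with sex and treatment removed and as a description. With the 20 other microglia genes r was 0.95. With complement genes r was 0.83, with border macrophage genes and with activated microglia genes 0.78 each, with ligands and partners of microglial receptors 0.76, with monocyte and neutrophil genes 0.72 and with interferon response genes 0.61. With endothelial and mural genes r was 0.37, with oligodendrocyte genes 0.34 and with astrocyte and Bergmann glia genes 0.18. With choroid plexus and meningeal genes it was -0.11, with Purkinje cell genes -0.26 and with granule neuron genes -0.47. When the 2 animals farthest from the median were left out, the 0.43 with lymphocyte genes was 0.17. Without these 2, r was 0.92 with other microglia genes, 0.73 each with complement and activated microglia genes, and 0.72 with ligands and partners. It was 0.69 with border macrophage genes, 0.57 with monocyte and neutrophil genes and 0.55 with interferon response genes. Oligodendrocyte genes were at 0.38, endothelial and mural genes at 0.30, astrocyte genes at 0.06 and choroid plexus genes at 0.05. Granule neuron genes were at -0.39 and Purkinje cell genes at -0.46.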

How the data were processed

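Whole-number counts per Ensembl gene were deposited by the authors, 1 table for each of 22 cerebella. The submitters' processing notes name Trim Galore, HISAT2, HTSeq, DESeq2 and build Sscrofa11.1. No version or strand setting is stated, so a gene's reads cannot be separated from those of an antisense neighbour that overlaps it. The 5 lines of each table that belong to no gene (29.9% to 34.6% of the counted reads) were left out. Chi-square per degree of freedom was at least 7.20 over the 231 library pairs, so no library looked duplicated. The replicate numbers were given in accession order and link no animals across groups.

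Symbols and positions came from gene name and RefSeq tables (Sscrofa11.1). Sequences and transcript lengths were not used here, so levels are not compared between genes. Genes were kept by filterByExpr of edgeR 4.0.16 (R 4.3.3; minimum count 10, minimum total 15), scaled by TMM, and tested by the quasi-likelihood test with a robust fit, with Benjamini-Hochberg adjustment over all 14994 genes. The model held sex and treatment, plus body weight per SD for the weight test, or the 4 groups of treatment and sex for the interaction. CPM used TMM-scaled library sizes, and log2 CPM a prior count of 2. Limma-voom (limma 3.58.1) and DESeq2 1.42.0 were alternatives, beside other scalings, filters, covariates and animals. The test was checked on simulated data.

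The members and lists were chosen with earlier results of these data known. The text names every member found, gives more detail for 15 members and for the 5 with the smallest p in each test, and names up to 2 genes of each related list by p in the treatment test and the 10 non-members most like the members' mean. The neighbours of IRF8 and SALL1, the flattest weight slopes, and CD2, HBB and ALAS2 were named after their values were seen. Some genes that these rules name are not reported here. No source says that animals came from separate litters, and the tests treat the animals as independent, which shared litters would break.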

Additional observations from a re-analysis of the deposited data

Results flagged for a closer look

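A single animal far from the rest of its treatment and sex group was looked for in 144 combinations of member and group, by the gap to the nearest animal as a share of the group's range, both on the log2 CPM scale. Chance flags about 1 in 20 groups, and 7 were found. Among the 4 BDL males, replicate 7 was lowest for CX3CR1 (11.4 CPM against 18.7 to 20.5 CPM, gap share 0.844) and for LY86 (0.910 against 1.34 to 1.44 CPM, gap share 0.842), and highest for IRF8 (86.7 against 69.4 to 71.1 CPM, gap share 0.892). BDL replicate 6 was highest for P2RY12 (20.9 against 14.3 to 15.1 CPM, gap share 0.852). Among the 7 BDL females, replicate 10 was highest for CD86 (1.95 against 0.912 to 1.21 CPM, gap share 0.631). Among the 6 SHAM males, replicate 1 was lowest for AIF1 (6.46 against 10.96 to 14.9 CPM, gap share 0.629), and replicate 4 was highest for CD68 (10.97 against 8.55 to 9.30 CPM, gap share 0.661).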

How the results depend on the processing

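Over 33 alternatives of the treatment test 0 members were called, and over 29 each of the sex and interaction tests 0 members. DESeq2 called 1 gene for treatment. For weight, DESeq2 called 8 genes and 3 members, males alone gave 5 genes and 5 members at an unadjusted p under 0.05, and leaving out each animal gave 0 to 9 genes, 0 to 5 members called and 11 to 22 members at an unadjusted p under 0.05. The share of all genes at an unadjusted p under 0.05 in these fits is not reported here. The median slope kept its sign, from 0.10 to 0.19. The members on the higher side in BDL numbered 14 of 36, but 5 in females alone and 29 in males alone, and 11 to 24 when each animal was left out (24 without SHAM replicate 2). The median treatment change was -0.23 in females alone and 0.20 in males alone, so its sign depends on the animals. TREM2 was at 0.17 in males alone. The difference between the sexes was below 0 for 30 to 36 members. The cause of these shifts was not tested. Other scalings moved the median of all genes by at most 0.006 (log2). No paired analysis was possible because the replicate numbers only follow the order of deposition. Counting limits P2RY13, LY86, CD163, MRC1 and CSF3R, with 10 or fewer counts in at least 1 library.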
